A study of Mus musculus with 12 samples.

Results

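The 6 embryoid body libraries labelled as grown without doxycycline fell into unequal sets, the replicate 1 libraries of both collection days on one side and replicates 2 and 3 on the other. They are 6 of the 12 libraries of the study. The split was defined from these same counts: NoDox_d2 replicate 1 and NoDox_d4 replicate 1 were set against the 4 other NoDox libraries, with the collection day kept as a block and all genes considered. The differences between the sets are therefore given as a description, with the value of every library and no test. Tests are given for the same replicate contrast in the 6 doxycycline libraries, which the split did not use. The labelled comparison of day 4 with day 2 is also given, on the same 6 NoDox libraries that defined the split.

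All 12 libraries came from epiblast stem cells, pluripotent cells in the primed state of the epiblast after implantation, which the submitters derived in vitro from mouse embryonic stem cells. Every group carried the same doxycycline-inducible, FLAG-tagged Mixl1 transgene, the controls included, and was grown as embryoid bodies, floating aggregates kept in medium with serum on an orbital shaker. NoDox_d2 and NoDox_d4 are labelled as without doxycycline and as collected on days 2 and 4, while D1Dox_d2 and D3Dox_d4 are the induced groups of the same days, with 1 µg/mL of doxycycline in the medium. Each group holds 3 libraries. The labels do not say what the number after the D stands for, whether replicates are separate cultures, or whether libraries with the same number share anything, and the spread behind each p-value may therefore be technical. A group without the transgene is not among the samples.

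In the embryo, Wnt, Nodal and FGF signals at the posterior side of the epiblast start the primitive streak, where cells switch on T and Mixl1 and leave as mesoderm and endoderm. Cells that stay behind in the posterior growth zone express Cdx and Nkx1-2 and open the Hox clusters one after another, while anterior epiblast shielded from these signals becomes neural plate with Sox1, Pax6 and Zic genes. ATF4 is the transcription factor of the integrated stress response. It is translated when amino acids run short or the endoplasmic reticulum is stressed, and it activates genes of amino acid synthesis, amino acid import and transfer RNA charging.

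Libraries held 24100487 to 28020036 counts, so that 3 counts, the smallest number taken as detection, correspond to 0.106 to 0.130 CPM (counts scaled to the size of the library). Pairs of libraries were compared by Pearson's r of log2 CPM over 17374 genes. Replicates 2 and 3 reached r = 0.992 on day 2 and 0.990 on day 4. Replicate 1 reached 0.954 and 0.958 with the others of day 2, and 0.956 and 0.957 with those of day 4. The 2 replicate 1 libraries correlated with each other at 0.957, within the range of their values with the other libraries of their own day. Markers of the primed state were present in every NoDox library. Their sum over 8 genes, among them Pou5f1 and Dnmt3b, was 1711 CPM in replicate 1 and 1453 and 1652 CPM in replicates 2 and 3 on day 2. On day 4 it was 736, 897 and 823 CPM. The sum hides members that went opposite ways. On day 2 Pou5f1 stood at 644 against 349.6 and 422 CPM, but Sox2 at 118 against 277 and 248 CPM. Sox2, also a neural progenitor gene, gave 189, 407 and 409 CPM of the day 4 sums. Xist and Y-linked genes were near 0 in all 6 NoDox libraries, at no more than 2.01 and 1.06 CPM. Visceral endoderm markers (Afp, Ttr and Apoa1) summed to no more than 2.65 CPM in any NoDox library. Fewer cells of a type and less RNA per cell cannot be told apart in bulk RNA.

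A gene was counted as different when replicate 1 lay at least 2-fold above, or 2-fold below, the mean of replicates 2 and 3 on both days, on the log2 CPM scale with a prior count of 2, which understates the difference of weakly expressed genes. Of the 17374 genes, 627 were counted higher in replicate 1 (3.61%) and 801 lower (4.61%), or 1428 in all (8.22%). These shares follow from the way the sets were chosen. With 1 library on one side, a day's difference has no replicate error of its own. Its repetition on the other day is no independent check, since both replicate 1 libraries were chosen from these counts. For 1231 of the 1428 genes both replicate 1 libraries lay outside the range of all 4 others. This follows largely from the 2-fold rule that picked these genes, and the share among all 17374 genes was not computed. A 2-fold difference on day 2 alone was met by 3092 genes (17.8%) and on day 4 alone by 3032 (17.5%). Across genes, the day 2 and day 4 differences had r = 0.566, and 71.2% of genes had the same sign on both days. Replicate 2 minus replicate 3, 1 library against 1, gave r = −0.0672 between the days, and 45 genes differed 2-fold with the same sign on both. The labels do not pair these numbers across days, so the sign of this r and the 45 depend on the numbering. Genes are not independent replicates, and these correlations are descriptions. The median difference of all genes was −0.0058 on day 2 and −0.035 on day 4, both on the log2 CPM scale.

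**Figure D1:**
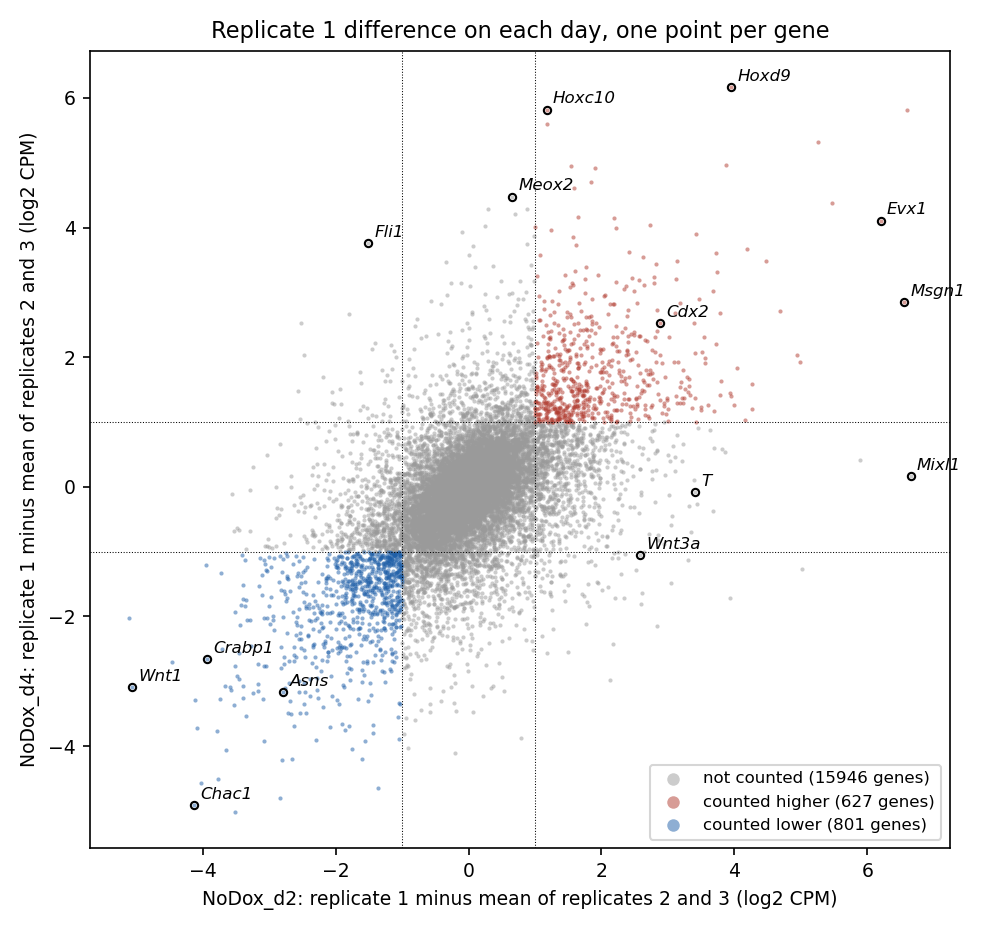
Each point is 1 of 17374 genes, placed by the log2 CPM difference of replicate 1 from the mean of replicates 2 and 3 in NoDox_d2 (x axis) and NoDox_d4 (y axis), with dotted lines at 2-fold. The 627 genes counted higher lie at the upper right and the 801 counted lower at the lower left, while Mixl1, T and Wnt3a differ on day 2 only or with the opposite sign on day 4.

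Posterior and primitive streak regulators led the genes that were higher in replicate 1. Evx1, a homeobox gene of the posterior streak on chromosome 6 (52313498 to 52318378, plus strand, GRCm38), stood at 52.7 CPM in replicate 1 and 0.356 and 1.12 CPM in replicates 2 and 3 on day 2. On day 4 it stood at 8.08 against 0.651 and 0.231 CPM. Its antisense neighbour Evx1os followed it, with 32.4 against 0.356 and 0.186 CPM and 8.44 against 0.0407 and 0.115 CPM, and they share 2.54% of Evx1's exon bases, where counting without strand cannot tell them apart. The library groups did not overlap for either gene on either day. Cdx1, a caudal-type homeobox gene that relays Wnt signals to the Hox clusters, showed 25.4 against 0.514 and 0.483 CPM on day 2 and 13.2 against 0.813 and 0.384 CPM on day 4. Cdx2, its relative in the posterior growth zone, showed 241 against 28.3 and 37.8 CPM and 127 against 24.8 and 19.7 CPM. Nkx1-2, a homeobox gene of neuromesodermal progenitors, the cells that supply both spinal cord and trunk mesoderm, stood at 189 against 26.1 and 39.1 CPM on day 2 and at 109.5 against 13.2 and 10.8 CPM on day 4. For all of these genes replicate 1 was the highest NoDox library on each day.

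Other leading genes of this side included Grhl3, a surface ectoderm factor, Msx1, a homeobox target of BMP signals, and Foxc1, a forkhead factor of paraxial mesoderm. Grhl3 stood at 33.6 CPM against 7.23 and 7.44 on day 2 and at 32.7 against 2.11 and 1.5 on day 4. Msx1 stood at 66.3 against 11.3 and 12.8 CPM and 52.7 against 5.73 and 5.38 CPM. The integrin subunit gene Itga1, the kinase gene Nrk and the signalling regulator gene Rgs5 were also among the 12 highest, with mean differences between 2.96 and 3.08. High levels of some of these genes were also read elsewhere. Rgs5 reached 14.7 to 18.1 CPM and Msx1 102 to 115 CPM in the D1Dox_d2 libraries.

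**Figure D2:**
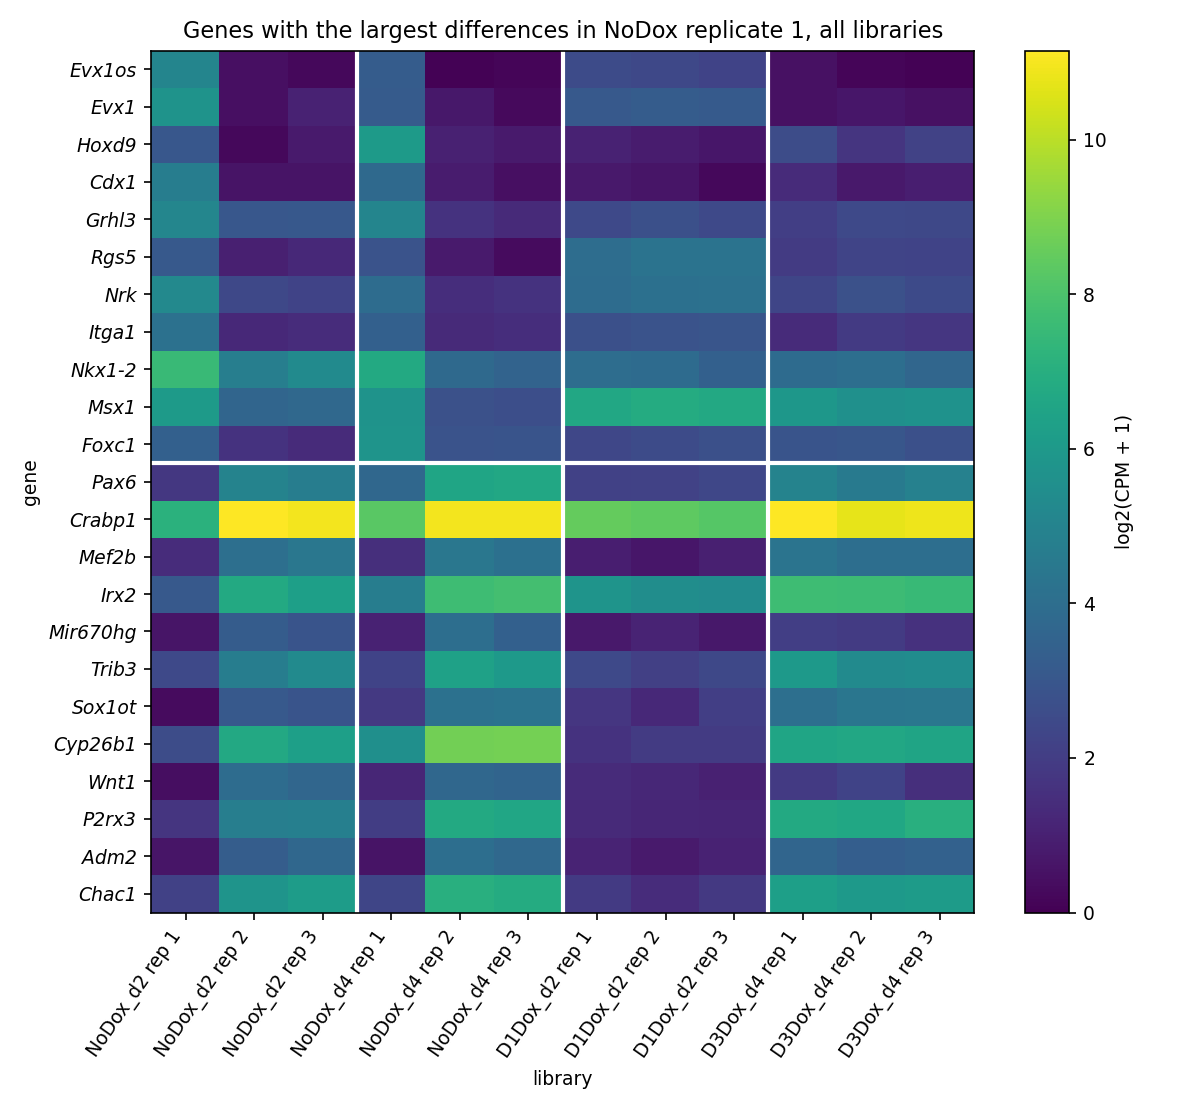
Levels, as log2(CPM + 1), of 11 of the 12 genes with the highest mean difference and the 12 with the lowest of NoDox replicate 1 (rows) in all 12 libraries (columns, by group and replicate). Replicate 1 stands out from replicates 2 and 3 in both NoDox groups, in the upper block by higher and in the lower block by lower values, and the doxycycline replicates do not separate in this way.

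Of 20 primitive streak and nascent mesoderm genes, all of which passed the filter on low counts, 6 were counted higher and 0 lower. Their median difference was 1.81 on day 2 and 0.40 on day 4, beside the all-gene medians near 0. Counts of list members, here and below, stand beside 3.61% of all genes counted higher and 4.61% counted lower. Msgn1, the basic helix-loop-helix factor of presomitic mesoderm, stood at 23.2 CPM in replicate 1 and 0.158 and 0.186 CPM in the others on day 2, and at 1.18 against 0.0813 and 0.115 CPM on day 4. The other counted genes were Evx1, the T-box gene Tbx6, the ligand gene Wnt5b, Lhx1 and Snai1, a repressor that drives epithelial cells into mesenchyme. Tbx6, which commits progenitors to paraxial mesoderm, showed 38.3 against 3.99 and 4.09 CPM and 9.03 against 5.04 and 2.61 CPM. Wnt5b, a ligand of migrating mesoderm, showed 73.3 against 6.32 and 7.36 CPM and 27.8 against 11.3 and 10.2 CPM. Replicate 1 was highest on both days for each of these, and more so on day 2.

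For other streak genes replicate 1 stood apart on day 2 only. T, the brachyury gene of the streak, read 1261 against 100.1 and 142 CPM on day 2, and 88.8 against 116 and 76.2 CPM on day 4, where replicate 1 lay between the others. Mixl1, the gene the transgene carries, read 91.0 against 0.593 and 1.15 CPM on day 2 and 1.62 against 1.83 and 1.11 CPM on day 4. In the doxycycline groups it stood at 362 to 392 CPM (D1Dox_d2) and 417 to 478 CPM (D3Dox_d4). NoDox_d2 replicate 1 thus lay above every other NoDox library and below every induced library for this gene. Gene counts do not tell the transgene from the endogenous gene, and the source of these reads was not tested. Eomes, a T-box gene of mesoderm and endoderm entry, showed the same day dependence, with 88.7 against 13.2 and 23.9 CPM and then 4.97 against 8.13 and 4.50 CPM. Sostdc1, a secreted inhibitor of BMP and Wnt signals, stood at 25.5 against 0.198 and 0.595 CPM on day 2 and 0.868 against 0.854 and 0.461 CPM on day 4. Wnt3 and Wnt3a, the streak's Wnt ligand genes, had opposite signs: Wnt3 stood at 74.0 against 16.1 and 23.0 CPM on day 2 but at 8.20 against 21.7 and 24.6 CPM on day 4.

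**Figure D3:**
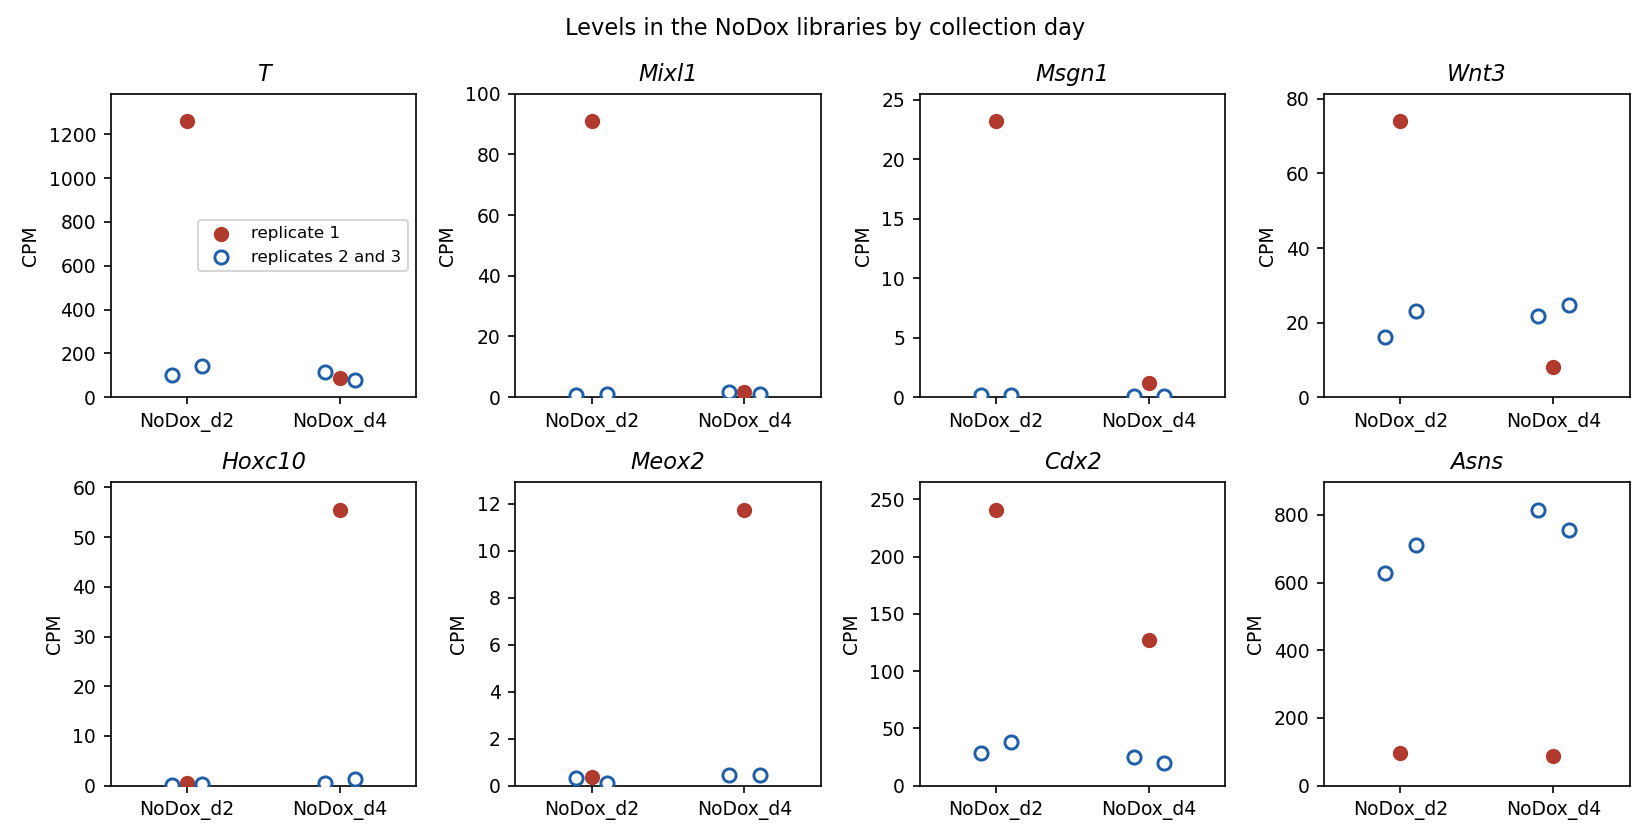
CPM (y axis, linear, from 0) of 8 genes in each NoDox library by collection day; filled points are replicate 1 and open points replicates 2 and 3. T, Mixl1, Msgn1 and Wnt3 peak in replicate 1 of day 2, Hoxc10 and Meox2 in replicate 1 of day 4, and Cdx2 and Asns differ in the same direction on both days.

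Hox genes differed more widely on day 4. Of the 39 Hox genes in the annotation, 32 passed the filter, and 10 of them were counted higher and 1 (Hoxc13) lower. On day 2, 11 of the 32 were at least 2-fold higher in replicate 1, and on day 4, 24 were. The summed level of all Hox genes was 345 CPM in replicate 1 against 297 and 297 CPM on day 2, and 1439 against 385 and 434 CPM on day 4. Over the genes that passed, paralogue groups 1 to 4, which are active furthest anterior, had a median difference of 1.07 on day 4. Groups 5 to 8 had one of 3.14, and groups 9 to 13, where only 9 of 16 genes passed, one of 2.44. In groups 5 to 8 all 11 genes passed the filter and all 11 were at least 2-fold higher on day 4, against 4 on day 2. Hoxd9 stood at 7.24 against 0.198 and 0.744 CPM on day 2 and at 67.5 against 1.02 and 0.73 CPM on day 4. Hoxc10, a gene of the lumbar level, was read almost only in replicate 1 of day 4, with 0.565 against 0.119 and 0.335 CPM and then 55.5 against 0.569 and 1.42 CPM. Hoxc6, a thoracic gene, was not higher on day 2 (5.65 against 6.05 and 7.62 CPM) but reached 105 against 11.3 and 12.5 CPM on day 4. Hoxb1, one of the first Hox genes to open, was at similar levels in all 6 libraries, 79.1 against 73.4 and 75.1 CPM and 67.1 against 47.3 and 56.6 CPM. The hindbrain gene Hoxb2 was lower in replicate 1, at 13.1 against 27.6 and 23.0 CPM and 21.0 against 43.0 and 49.0 CPM. Hoxd10, Hoxa11, Hoxc11 and Hoxd11 failed the filter because they were read almost only in NoDox_d4 replicate 1, at 18.1, 3.71, 4.22 and 5.76 CPM, with no more than 0.318 CPM in any other NoDox library. The median of groups 9 to 13 therefore leaves out their day 4 differences of 4.81 to 7.28. It also leaves out Hoxd12, Hoxa13 and Hoxc12, at 3.55, 2.30 and 0.

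Among the 21 of 22 listed posterior growth zone and Hox genes that passed the filter, 8 were counted higher and 0 lower, with medians of 0.66 on day 2 and 2.83 on day 4. Somite and paraxial mesoderm genes varied in the day of their larger difference, which was not tested. Of 11 of 14 that passed, 3 were counted higher (Foxc1, Aldh1a2 and Tbx18) and 0 lower, with medians of 0.57 and 2.06. Meox1, a somite homeobox gene, was level on day 2 (21.7 against 20.7 and 21.1 CPM) and stood at 235 against 36.2 and 37.6 CPM on day 4. Its relative Meox2 read 11.8 against 0.447 and 0.461 CPM on day 4. Foxc1 differed on both days, with 9.67 against 2.09 and 1.56 CPM and 53.8 against 6.14 and 6.34 CPM. Aldh1a2, the enzyme that makes retinoic acid in trunk mesoderm, stood at 37.1 against 5.45 and 6.02 CPM and 66.7 against 24.4 and 20.6 CPM. Hes7, a repressor gene of the segmentation clock, differed mainly on day 2, at 10.03 against 0.435 and 1.23 CPM, and stood at 2.05 against 1.02 and 1.15 CPM on day 4. Lfng, a Notch-modifying enzyme gene of the same clock, was not counted and lay on the other side, at 24.4 against 37.5 and 34.0 CPM and 25.8 against 47.9 and 49.8 CPM.

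Other mesoderm lists had their counted genes on the higher side as well. Of 14 lateral plate and cardiac genes 11 passed; 5 were counted higher (Hand1, Gata4, Isl1, Tbx3 and Bmp4) and 0 lower, with medians of 1.54 and 1.35. Bmp4, the ligand that posteriorises the embryo, stood at 33.8 against 8.54 and 9.52 CPM and 25.1 against 10.3 and 11.5 CPM, whereas Hand1, Gata4 and Isl1 stayed below 4 CPM in every NoDox library. Of 14 blood and endothelium genes 12 passed; 4 were counted higher (Cdh5, Lmo2, Runx1 and Tek) and 0 lower. Lmo2, a haematopoietic cofactor gene, showed 28.4 against 4.86 and 4.54 CPM and 26.5 against 6.18 and 4.46 CPM. Kdr, the VEGF receptor of endothelial progenitors, was higher mainly on day 4, at 30.1 against 4.68 and 6.19 CPM. The 3 fixed endothelial markers summed to 6.81 against 2.41 and 2.31 CPM on day 2 and 35.8 against 5.85 and 6.99 CPM on day 4.

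Genes of fibroblasts, the feeder cells on which epiblast stem cells can be kept, were higher in replicate 1 on day 4. Of 12 that passed, 3 were counted higher (Lum, Dcn and Pdgfrb) and 0 lower, with medians of 0.23 on day 2 and 1.64 on day 4. The summed level of the list was 559 against 450 and 443 CPM on day 2 and 850 against 257 and 273 CPM on day 4. Col3a1, a fibrillar collagen gene, made up much of the day 4 gap, at 322 against 31.3 and 28.7 CPM. Lum and Dcn, proteoglycan genes that define the type, stayed low, at 3.23 and 10.8 CPM in replicate 1 of day 4. The 12 were above 0 in every NoDox library, while S100a4, which failed the filter, was at 0 in replicate 2 of both days. The part of fibroblasts in the mesoderm differences was not tested.

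Wnt response genes lay mostly higher in replicate 1, while Wnt ligand genes lay on both sides, with Wnt5b counted higher and Wnt1 lower. Of 12 Wnt response genes, 9 were positive on both days and 1 negative on both. Among the 12, 4 were counted higher (Sp5, Lef1, Notum and Rspo3) and 0 lower, with medians of 0.72 and 0.35. Sp5, a direct target and repressor of the pathway, stood at 114 against 6.48 and 10.4 CPM on day 2 and at 21.4 against 10.7 and 5.96 CPM on day 4. Lef1, a DNA-binding partner of β-catenin, stood at 95.8 against 19.8 and 25.4 CPM and 67.7 against 19.5 and 16.9 CPM. Axin2, the usual readout of the pathway, was not counted, with 142 against 84.5 and 82.8 CPM and 102 against 89.1 and 94.6 CPM. Promoters of Wnt response, posterior and streak genes were searched for CTTTGAT, the core of the TCF/LEF binding motif, on both strands. No match was found for Lef1, Axin2, Cdx2, Nkx1-2, Evx1, Tbx6, T and Wnt3a, and the windows of Sp5 and Msgn1 are shown because they hold a match. The 250 bases before the RefSeq start site are printed 5′ to 3′ on the gene's strand (GRCm38.p6, chr2:70474673-70474922, plus strand, for Sp5 and chr12:11208949-11209198, minus strand, for Msgn1), with the match in capitals, read in Msgn1 from the other strand.
Sp5: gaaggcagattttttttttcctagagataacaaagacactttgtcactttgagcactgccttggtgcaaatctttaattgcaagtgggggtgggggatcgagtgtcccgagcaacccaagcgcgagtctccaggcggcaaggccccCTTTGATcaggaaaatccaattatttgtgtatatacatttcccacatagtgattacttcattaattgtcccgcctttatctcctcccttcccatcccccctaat
Msgn1: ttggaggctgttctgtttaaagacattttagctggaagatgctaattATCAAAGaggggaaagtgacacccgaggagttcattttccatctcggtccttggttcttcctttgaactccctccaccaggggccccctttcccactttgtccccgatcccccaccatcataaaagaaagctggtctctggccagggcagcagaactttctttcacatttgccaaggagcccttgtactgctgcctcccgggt
The match begins 104 bases before the start in Sp5 and 203 bases before it in Msgn1. The motif occurs in 3.72% of all 27025 genes with a window of this length (3.21% of 32851 windows), in 1 of 8 Wnt response genes, 3 of 17 streak genes and 0 of 14 posterior growth zone and Hox genes. These matches are letters in a window and describe no binding.

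Of 10 FGF response genes, 1 was counted higher (Etv4) and 0 lower, beside 3.61% and 4.61% of all genes, with medians of 0.74 and 0.59. Etv4, a transcription factor gene induced by FGF, stood at 90.7 against 16.9 and 23.5 CPM and 74.6 against 35.0 and 22.2 CPM. Of 10 BMP response genes, Msx1 was counted higher and Id4 lower, beside the same shares of all genes, with medians of −0.16 and −0.016. Of the 10 core and naive pluripotency genes that passed the filter, 6 were positive on both days and 1 negative on both, with medians of 0.83 and 0.33. Pou5f1, the central pluripotency factor, stood at 644 against 349.6 and 422 CPM on day 2 and at 98.2 against 137 and 89.8 CPM on day 4. Nanog was lower in replicate 1 on both days, at 164 against 249 and 253 CPM and 28.6 against 73.6 and 40.1 CPM, which was under 2-fold on each day. Of the 10 that passed, 3 were counted higher (Klf2, Tfcp2l1 and Tbx3) and 0 lower. Of 6 germ cell genes that passed, 3 were counted higher, Prdm1, Prdm14 and Nanos3, and 0 lower. Among the 6, 4 were positive on both days and 2 negative on both. Prdm1, the repressor that specifies primordial germ cells and also acts in other streak derivatives, stood at 57.8 against 10.5 and 10.1 CPM and 26.1 against 5.24 and 4.65 CPM.

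Neural genes lay on the opposite side. Of 14 general neural progenitor genes, 0 were counted higher and 7 lower (Sox1, Sox2, Zic1, Zic2, Zic5, Hes5 and Fabp7), with medians of −0.86 on day 2 and −1.23 on day 4. Sox1, the earliest neural plate factor, stood at 40.9 CPM in replicate 1 and 292 and 276 CPM in the others on day 2, and at 81.6 against 308 and 348 CPM on day 4. Zic1, a zinc finger factor of the dorsal neural plate, stood at 12.9 against 79.0 and 60.0 CPM and 55.7 against 268 and 279 CPM. Hes5, a Notch target of neural progenitors, stood at 0.424 against 3.95 and 2.01 CPM and 3.51 against 41.6 and 38.9 CPM. The replicate 1 libraries were the lowest of their day for each of these genes, and in replicate 1 all of them read higher on day 4 than on day 2. Sox3 and Nes, also neural progenitor genes, were not counted. Nes stood at 347 against 226 and 236 CPM on day 2 and at 299 against 321 and 377 CPM on day 4.

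Regional neural genes lay on both sides. Of 8 anterior neural plate genes that passed, 3 were counted lower (Otx2, Lhx5 and Pax6) and 0 higher. Pax6, the paired-box factor of eye and neural tube, stood at 2.47 against 30.6 and 25.2 CPM and 12.3 against 91.8 and 101 CPM. Of 16 midbrain, hindbrain and spinal cord patterning genes, 6 were counted lower (Egr2, Pax3, Pax7, Olig3, Irx3 and Msx3) and 2 higher (En2 and Pax5). Wnt1, a ligand of the midbrain boundary and the dorsal neural tube, stood at 0.318 against 14.2 and 12 CPM on day 2 and 1.30 against 12.2 and 11.2 CPM on day 4. Irx2, an Iroquois factor of the neural plate, stood at 7.56 against 109 and 77.3 CPM and 25.2 against 207 and 225 CPM. En2, the Engrailed gene of the midbrain and hindbrain boundary, stood on the other side, at 24.5 against 5.93 and 9.11 CPM and 35.6 against 17.6 and 12.2 CPM. Of 12 neuronal genes, 5 were counted lower (among them Neurog1, Neurod1, Elavl3 and Elavl4) and 0 higher, with medians of −1.39 and −1.47. Elavl4, an RNA-binding protein gene of new neurons, stood at 7.77 against 38.5 and 24.2 CPM and 18.5 against 79.6 and 66.9 CPM.

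Retinoic acid genes divided between the sets. Crabp1, a cellular retinoic acid-binding protein gene, stood at 138 CPM in replicate 1 against 2234 and 2012 CPM on day 2, and at 311 against 1976 and 1970.1 CPM on day 4. Cyp26b1, which degrades retinoic acid in the hindbrain, was lower with it, at 5.12 against 105 and 77.0 CPM and 45.6 against 437 and 457 CPM. Crabp2 was the third counted lower. Cyp26a1, the degrading enzyme of the streak and tail bud, lay higher, at 29.0 against 8.42 and 11.4 CPM and 25.5 against 10.5 and 7.88 CPM. The list of 11 thus held 2 genes counted higher and 3 lower, with medians of −0.77 on day 2 and 1.20 on day 4. Rarb, a retinoic acid receptor and target, changed sign between the days, from 0.141 against 1.03 and 0.818 CPM to 7.81 against 1.83 and 3.04 CPM.

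The ATF4 and amino acid response genes had the largest share of counted genes among the lists examined. Of 26 genes, all of which passed the filter, 18 were counted lower in replicate 1 and 0 higher, and 24 were negative on both days. Their medians were −1.71 on day 2 and −1.88 on day 4. Asns, asparagine synthetase, lies on chromosome 6 (7675169 to 7693254, minus strand, GRCm38) and stood at 97.0 CPM in replicate 1 and 628 and 710.4 CPM in the others on day 2, and at 87.2 against 816 and 756 CPM on day 4. Chac1, which degrades glutathione, stood at 3.46 against 53.2 and 71.7 CPM and 3.98 against 131 and 114 CPM. Trib3, a pseudokinase that feeds back on ATF4, stood at 4.48 against 25.5 and 39.8 CPM and 3.75 against 81.6 and 62.0 CPM. In each case replicate 1 of both days lay below all 4 other libraries. Serine synthesis (Phgdh, Psat1 and Psph), mitochondrial one-carbon metabolism (Shmt2, Mthfd2 and Aldh1l2) and amino acid transport (Slc7a5, Slc7a3 and Slc3a2) were all represented among the 18. Psat1 stood at 160.4 against 711 and 803 CPM and 291 against 1155 and 1062 CPM. Slc7a3, a cationic amino acid transporter gene, stood at 28.6 against 125 and 159 CPM and 9.43 against 146 and 139 CPM. Atf4 itself was lower, at 248 against 504 and 593 CPM and 284 against 691 and 618 CPM. Ddit3, Atf3 and Cebpb, stress-induced transcription factor genes, were not counted because their day 2 difference was under 2-fold. Ddit3 stood at 7.52 against 8.81 and 11.6 CPM on day 2 and 8.05 against 24.7 and 24.5 CPM on day 4.

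The cytosolic aminoacyl-tRNA synthetases, which load amino acids onto transfer RNA, were added after their values had been seen. Of 20 genes, 8 were counted lower (Cars, Gars, Iars, Lars, Mars, Nars, Sars and Yars) and 0 higher, with medians of −0.69 and −0.76. Nars, the asparaginyl enzyme, stood at 250.4 against 686 and 778 CPM on day 2 and at 249 against 787 and 733 CPM on day 4. Rars, the arginyl enzyme, lay on the other side, at 241 against 185 and 206 CPM and 217 against 175 and 175 CPM. The unfolded protein response list, which holds other genes of endoplasmic reticulum stress, had 1 of 10 genes counted lower (Herpud1) and 0 higher, with medians of 0.38 and 0.15.

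ATF4 binds a composite element with C/EBP proteins, and the core letters TGATGNAA were searched on both strands in the 250 bases before each RefSeq start site. Of the 22 listed genes with a window, 8 held a match, against 3.91% of all 27025 genes with one. Matches occurred in 4 of 15 genes counted lower and in 4 of 7 not counted. The windows of 3 genes counted lower are shown, 5′ to 3′ on the gene's strand with the matching letters in capitals (GRCm38.p6, chr6:7693210-7693459, minus strand, for Asns, chr2:119350992-119351241, plus strand, for Chac1, and chr14:55540016-55540265, plus strand, for Pck2, the mitochondrial phosphoenolpyruvate carboxykinase).
Asns: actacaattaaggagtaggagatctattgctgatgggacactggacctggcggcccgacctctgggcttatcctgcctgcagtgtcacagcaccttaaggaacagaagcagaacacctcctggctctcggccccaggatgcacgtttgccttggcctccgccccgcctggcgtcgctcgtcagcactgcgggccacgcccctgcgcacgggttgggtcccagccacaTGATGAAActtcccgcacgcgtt
Chac1: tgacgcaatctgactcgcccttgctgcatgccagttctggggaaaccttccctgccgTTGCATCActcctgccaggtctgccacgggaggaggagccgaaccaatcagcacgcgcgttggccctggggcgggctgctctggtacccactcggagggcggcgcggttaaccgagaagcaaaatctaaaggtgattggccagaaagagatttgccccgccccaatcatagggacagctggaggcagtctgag
Pck2: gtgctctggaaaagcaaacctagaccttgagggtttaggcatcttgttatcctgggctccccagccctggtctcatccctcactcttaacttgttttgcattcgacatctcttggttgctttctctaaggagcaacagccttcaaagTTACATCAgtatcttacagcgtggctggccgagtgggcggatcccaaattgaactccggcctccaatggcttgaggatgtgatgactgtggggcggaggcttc
The match begins 23 bases before the start in Asns, 193 bases before it in Chac1 and 103 bases before it in Pck2, and is read from the opposite strand in Chac1 and Pck2. These windows are shown because their genes were counted lower and hold the letters. A match describes letters and not a bound site, and its absence says nothing of the factor.

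Most of the remaining metabolic and growth lists held no counted gene. Of 23 glycolysis and hypoxia genes, 3 were counted lower (Pfkp, Vegfa and Car9) and 1 higher (Mt2), beside 4.61% and 3.61% of all genes. Their medians were −0.16 and 0.046. Vegfa, the angiogenic ligand gene, stood at 23.5 against 119 and 139 CPM and 74.7 against 279 and 257 CPM, while Gapdh was level at 2479.8 against 2289 and 2360.4 CPM and 2216 against 2186 and 2033 CPM. No gene was counted among 15 of cholesterol and fatty acid synthesis, 12 of the p53 response, 16 of DNA replication and cell cycle, 6 of the Hedgehog response and 13 encoded in mitochondria. The mitochondrial genes took 2.77% of the counts in replicate 1 against 3.16% and 2.76% on day 2, and 2.81% against 5.21% and 3.70% on day 4. On day 4 replicates 2 and 3 therefore differed from each other in this share as well, and its part in the other differences was not tested. Surface ectoderm genes (12 passing) had 2 counted higher (Grhl3 and Tfap2c) and 1 lower (Tfap2a).

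**Figure D4:**
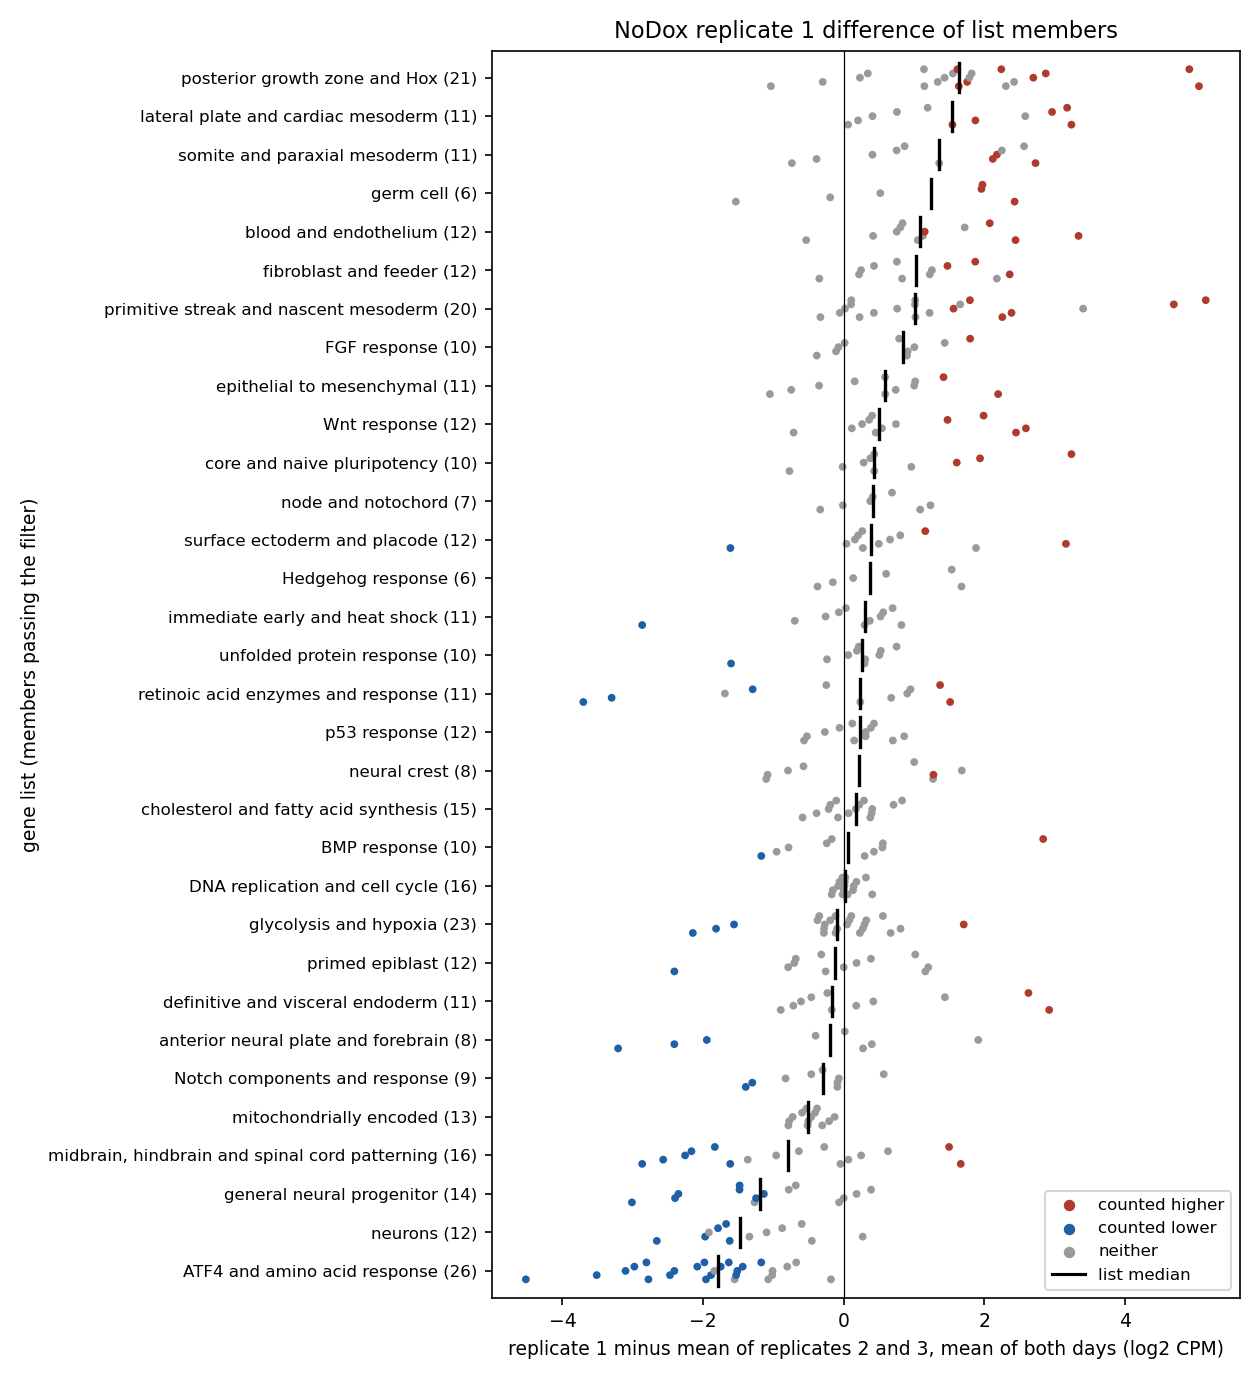
Each point is a list member that passed the filter, placed by its replicate 1 difference averaged over both days (x axis, log2 CPM), and each row is a gene list with its number of members, ordered by the median (black bar). Posterior, mesoderm and germ cell lists lie at the top with positive medians, and the ATF4, neuron and neural progenitor lists at the bottom.

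The same genes were then read in the doxycycline libraries, which the split had not used. The median of the 627 genes counted higher was 1.69 in NoDox_d2 replicate 1 and 1.14 in NoDox_d4 replicate 1, on the log2 CPM scale, and between −0.61 and −0.22 in the 4 other NoDox libraries. It was 1.59 to 1.72 in the D1Dox_d2 libraries and −0.082 to 0.046 in those of D3Dox_d4. For the 801 genes counted lower the median was 0.54 and 1.06 in the replicate 1 libraries and 2.29 to 2.81 in the others. It was 1.19 to 1.37 in D1Dox_d2 and 2.94 to 2.96 in D3Dox_d4. All 3 D1Dox_d2 libraries thus had medians near those of NoDox replicate 1, and all 3 D3Dox_d4 libraries medians near those of NoDox replicates 2 and 3 or above them. The doxycycline groups differ in collection day and in their label before the day, which cannot be told apart here. Fibroblast genes differed between them as well. Their sum was 2074 to 2535 CPM in D1Dox_d2 and 507 to 606 CPM in D3Dox_d4, and Xist read 12.1 to 19.7 CPM in the former and at most 0.627 CPM in the latter. The part of these other cells in the medians was not tested. Asns stood at 80.7, 78.6 and 72.7 CPM in D1Dox_d2 and at 564, 431 and 474 CPM in D3Dox_d4. Chac1 followed the same order, with 2.69, 1.67 and 2.64 CPM and 77.8, 63.6 and 69.0 CPM. Posterior and streak genes did not share 1 order. Evx1 stood at 7.54 to 8.62 CPM in D1Dox_d2 and 0.398 to 0.59 CPM in D3Dox_d4, and Msx1 at 102 to 115 and 47.2 to 59.1 CPM, both higher in D1Dox_d2. Cdx2 stood the other way, at 7.77 to 8.92 CPM in D1Dox_d2 and 18.6 to 20.8 CPM in D3Dox_d4, both below NoDox replicate 1 of either day. T stood at 51.1 to 54.8 CPM in D1Dox_d2 and 7.34 to 17.3 CPM in D3Dox_d4, below every NoDox library. Over all 17374 genes NoDox_d2 replicate 1 correlated with the D1Dox_d2 libraries at r = 0.948 to 0.953 and with those of D3Dox_d4 at 0.899 to 0.906. NoDox_d4 replicate 1 correlated with the same groups at 0.933 to 0.938 and 0.929 to 0.933. NoDox_d2 replicate 1 shares its collection day with D1Dox_d2, and it reached 0.954 and 0.958 with the other NoDox_d2 libraries.

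**Figure D5:**
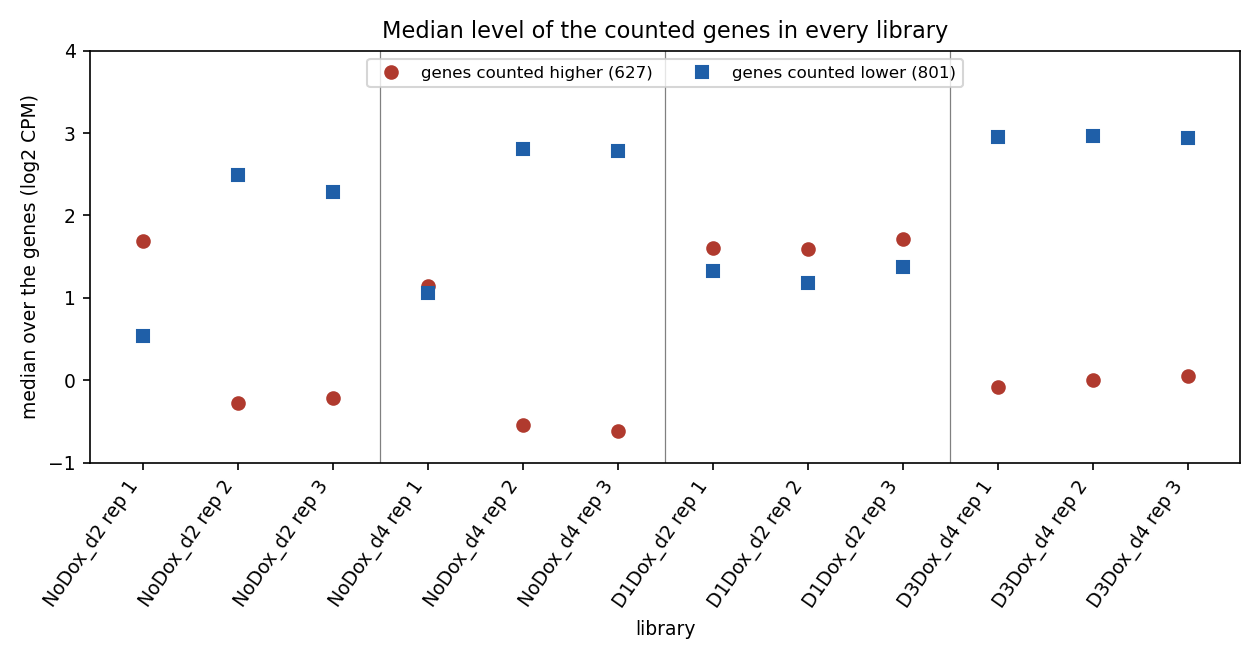
Median log2 CPM (y axis) of the 627 genes counted higher (circles) and the 801 counted lower (squares) in each of the 12 libraries (x axis). The circles of both NoDox replicate 1 libraries and of D1Dox_d2 lie above 1, those of the remaining libraries below 0.1.

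Whether replicate number split the doxycycline libraries in the same way was tested with edgeR's quasi-likelihood test, replicate 1 against replicates 2 and 3 with the group as a term and Benjamini-Hochberg adjustment over 17197 genes. Replicate 1 differed in 1467 genes at an adjusted p under 0.05 (8.53%), 607 higher (3.53%) and 860 lower (5%), with 3 residual degrees of freedom. Without D3Dox_d4 replicate 1, which leaves 1 library of that number, assumed to vary like the others, 20 genes were called. Without D3Dox_d4 replicate 2 there were 314, without D3Dox_d4 replicate 3 578, without D1Dox_d2 replicate 3 693, without D1Dox_d2 replicate 1 2303 and without D1Dox_d2 replicate 2 2641. Dst, a cytoskeletal linker gene, had the lowest p and stood at 245, 351 and 395 CPM in D1Dox_d2 and 124, 236 and 224 CPM in D3Dox_d4, a log2 difference of −0.74 ± 0.08 (standard error; adjusted p = 0.000933, edgeR). Fabp7, a fatty acid-binding protein gene of radial glia, was higher in replicate 1 by 0.56 ± 0.08 (edgeR adjusted p = 0.00243), with 30.7, 18 and 19.5 CPM and 162, 119.7 and 122 CPM. The other genes with the lowest adjusted p were Hipk2, Usp34, Usp9x and Tnrc6b (lower) and Stmn3, Chchd2, Ppp1r14b and Rps3a2 (higher). Rps3a2 is a near copy of a ribosomal protein gene, and its count is uncertain. With all 12 libraries in the fit, edgeR called 0 genes (2988 at an unadjusted p under 0.05), and these 10 genes had adjusted p-values of 0.0611 to 0.100 there, while DESeq2 called 1493 genes on the 6 doxycycline libraries.

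The genes called in the doxycycline libraries differed in exon length. The median exon length was 2198 bases for the 607 higher and 10432 bases for the 860 lower genes, against 3990 bases for all genes tested. For the NoDox split the medians were 3879 bases for the 627 genes counted higher and 3655 for the 801 counted lower, against 3916 for all. The part of exon length in the doxycycline calls was not tested.

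The calls in the doxycycline replicates did not repeat the NoDox directions. Of the 627 genes counted higher in NoDox replicate 1, 542 were tested in the doxycycline libraries, where 0 were called higher and 29 lower (5.35%), beside 3.53% and 5% of all genes by edgeR's test. At an unadjusted p under 0.05, 11 were higher and 65 lower, and DESeq2 called 0 higher and 28 lower. Their median log2 difference was −0.096, against −0.0024 for all genes tested. Of the 801 counted lower, 727 were tested, and 32 were called higher (4.4%) and 16 lower (2.2%), with a median of 0.025. Without D3Dox_d4 replicate 1, 2 of the genes counted higher were called lower and 2 of those counted lower were called higher. Of the 26 ATF4 genes, 5 were called higher, Trib3, Phgdh, Psph, Slc7a3 and Pck2, opposite to NoDox, and 1 lower, Aldh1l2. Of the neural progenitor genes, Sox2, Hes5 and Fabp7 were called higher, also opposite to NoDox. Trib3 was higher in replicate 1 by 0.52 ± 0.11 (edgeR adjusted p = 0.0129), with 4.58, 3.34 and 4.42 CPM in D1Dox_d2 and 62.1, 39.5 and 41.3 CPM in D3Dox_d4. Evx1 and Cdx2 did not pass, with differences of −0.15 ± 0.21 (edgeR adjusted p = 0.713) and 0.12 ± 0.11 (edgeR adjusted p = 0.562).

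The split also bore on the labelled comparison of NoDox_d4 with NoDox_d2, in which it is balanced. Without a term for the replicate, edgeR's quasi-likelihood test called 206 of 16589 genes (1.24%), 84 higher on day 4 (0.506%) and 122 lower (0.735%). With the replicate number as a block it called 1928 (11.6%), 927 higher (5.59%) and 1001 lower (6.03%), the 206 among them. With replicate 1 against the others as a single term the count was 3388 (20.4%), 1684 higher (10.2%) and 1704 lower (10.3%). That term was chosen from the same counts because it separated these libraries, so its removal lowers the residual spread by construction and the count is a description. The correlation of same-numbered libraries between days, by their deviations from the day means, was 0.566, 0.390 and 0.324 for replicates 1, 2 and 3. In a mean of 3 libraries, replicates 2 and 3 both mirror replicate 1, and their crossed pairs correlated as highly, at 0.446 and 0.358. No pairing beyond the split itself was shown, and the 1928 calls with the block carry the same limit as the single term. The 206 calls without a block needed all 4 libraries of replicates 2 and 3, since leaving out any of these gave 0 calls by edgeR, with 1873 to 2332 genes at an unadjusted p under 0.05. Without replicate 1 of day 4 there were 535, and DESeq2 called 1455 on all 6 libraries.

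Genes with the lowest p without the block read alike in all 3 libraries of a day. Robo2, an axon guidance receptor gene, stood at 8.16, then 10.4 and 8.55 CPM on day 2 and at 47.3, then 45.8 and 51.3 CPM on day 4, a log2 difference of 2.40 ± 0.15 (edgeR adjusted p = 0.0181; with the replicate block 0.00307). Foxh1, the forkhead partner of Nodal signals, fell from 83.3, then 73.8 and 86.2 CPM to 30.4, then 29.7 and 26.2 CPM, a log2 difference of −1.50 ± 0.12 (edgeR adjusted p = 0.0218; with the replicate block 0.00334). Lrrc4, Smoc1, Hsd11b2 and Elovl4 rose and Shisa6, Ltb, Enpp3 and Pdzk1 fell at an edgeR adjusted p of at most 0.0221. Both comparisons use the same 6 libraries, and the block changed the call of several genes described above. Pax6, Hes5 and Nkx1-2 were counted in the split, and the block takes that split out of the residual spread. Their lower p with the block therefore follows largely from the choice of the split and is a description. Pax6 rose by 1.92 ± 0.16 (edgeR with replicate block, adjusted p = 0.00341; without it 0.42). Hes5 rose by 3.65 ± 0.27 (edgeR with replicate block, adjusted p = 0.0032; without it 0.15). Nkx1-2 fell, with a log2 difference of −1.20 ± 0.21 (edgeR with replicate block, adjusted p = 0.0184; without it 0.725). Asns did not pass in either fit, with 0.10 ± 0.12 (edgeR with replicate block, adjusted p = 0.643; without it 0.943).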

How the data were processed

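RNA sequencing libraries (150 base paired reads) were analysed from 12 samples, 3 in each of 4 groups. Per the file headers, the authors counted reads per gene with featureCounts 2.0.1, as pairs with both ends mapped and without strand, on GENCODE vM25 (GRCm38), and deposited raw counts of 55487 genes, 55141 of them with a symbol. STAR, featureCounts and DESeq2 are named in the submitters' processing notes. CPM values were scaled by trimmed mean of M-values factors over all 12 libraries (edgeR 4.0.16, R 4.3.3), and log2 values used a prior count of 2. Genes entered the NoDox description by edgeR's expression filter with a minimum of 2 libraries. A difference is replicate 1 minus the mean of replicates 2 and 3 within a day, and a gene was counted at 2-fold or more with the same sign on both days.

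Tests were edgeR's quasi-likelihood test with Benjamini-Hochberg adjustment over all genes tested at 0.05, with DESeq2 1.42.0 as an alternative, and the scripts were tested on simulated data. The standard error is the log2 difference divided by the square root of F. Deviations of same-numbered libraries correlated above 0.1 between days, but the crossed pairs of replicates 2 and 3 did so as well, and the labels give no pairing. No pair of libraries of a group agreed within sampling noise.

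The genes named are the 12 highest and 12 lowest mean differences among counted genes above 5 CPM, up to 4 per list, the 6 genes with the widest difference between days in each direction, and the 5 with the lowest p in each direction of each test, with Mixl1, T and Asns added from earlier results. Other genes named, such as Axin2, Nanog, Gapdh, Nes and the single Hox genes, were chosen after their values were seen. Some genes that these rules name are not reported here. The members and lists were chosen with earlier results of these data known. Of 119 genes named by rule, 12 overlap an opposite-strand gene over more than 10% of their exon length, so that reads cannot be assigned with certainty for Hes5, Lef1, Mt2, Nkx1-2, Notum, Pdzk1, Rarb, Rspo3, Sox17, Tbx18, Tfap2a and Usp34. Promoter sequences are from RefSeq (GRCm38.p6).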

Additional observations from a re-analysis of the deposited data

Results flagged for a closer look

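Some genes differed at least 2-fold in replicate 1 on each day, but in opposite directions. Of the 17374 genes, 74 were higher on day 2 and lower on day 4, and 43 were the reverse. The 11 given here are members of the gene lists, or among the 6 widest in each direction, that reached 5 CPM in a NoDox library, and for each of them the difference between the days was not tested. The day 2 difference minus the day 4 difference is given on the log2 CPM scale, beside the levels where they show the change. Wnt3 had a value of 3.43 and Wnt3a, its neighbour in function at the streak, one of 3.64, with 29.9 CPM in replicate 1 against 5.61 and 4.31 on day 2 and 7.73 against 16.1 and 16.3 on day 4. Foxj1, the regulator of motile cilia, had a value of 3.65, and Ccno, a gene of multiciliated cells, one of 6.29. Ccno stood at 21.1 against 0.593 and 0.558 CPM on day 2 and was below 1 CPM in all libraries of day 4. Its day 4 difference rests on 4 counts in replicate 1 against 11 and 14 in replicates 2 and 3. Fgf5, a primed epiblast ligand gene, had a value of 2.69, the sodium channel gene Scn9a one of 4.98, and Defa30, a defensin gene with close copies that share reads and whose count is therefore uncertain, one of 5.65. In these genes replicate 1 was above the others on day 2 and below them on day 4.

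The reverse order was read for Olig2, a motor neuron progenitor gene, at −2.96, for the retinoic acid receptor gene Rarb at −3.88, for the sterol sensor gene Insig1 at −2.44 and for Fli1, an endothelial and blood factor gene, at −5.27. Fli1 stood at 0.388 against 1.74 and 0.892 CPM on day 2 and at 13.7 against 1.14 and 0.769 CPM on day 4. Rarb shares 38.4% of its exon bases with genes of the opposite strand.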

How the results depend on the processing

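The NoDox count of 1428 genes moved to 3155 at 1.5-fold and 206 at 4-fold, and ranged from 1379 to 3092 when 1 library was left out, the higher values being counts of a single day (3092 without replicate 1 of day 4, 3032 without replicate 1 of day 2). Other scalings, filters and prior counts gave 1102 to 1863. Among the counted named genes none reversed its sign in 900 recomputed values. That was largely set in advance, since these genes were chosen for a 2-fold difference of the same sign on both days. The doxycycline count of 1467 fell to 249 at an adjusted p under 0.01 and to 0 (edgeR, 2988 at an unadjusted p under 0.05) with all 12 libraries in the fit. It ranged from 20 to 2641 when 1 library was left out. Other settings gave 1461 to 2019, with 1493 by DESeq2's test. The day count of 206 was 486 with no filter, 1455 by DESeq2's test, 1926 with all 12 libraries, 1928 with the replicate block, 3388 with replicate 1 as a term, which was chosen from these counts, and 5800 without both replicate 1 libraries, and it was 0 at an adjusted p under 0.01 (edgeR, 2846 at an unadjusted p under 0.05). It ranged from 0 to 535 when 1 library was left out. The cause of the other changes was not tested. The paired fit kept all 206 calls, and the counts of low genes limit their differences, since 3 counts equal up to 0.130 CPM.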

Other observations

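Other genes that differed between the days of the split fell outside the lists. Apold1, an endothelial early-response gene, stood at 0.777 CPM in replicate 1 against 0.356 and 0.483 CPM on day 2, and at 0.276 against 5.49 and 4.80 CPM on day 4. Wt1, the zinc finger factor of kidney and mesothelium, stood at 2.12 against 0.83 and 0.967 CPM on day 2 and at 10.3 against 0.163 and 0.115 CPM on day 4. Necab1, a neuronal calcium-binding protein gene, stood at 0.388 against 0.474 and 0.186 CPM and then at 5.68 against 0.244 and 0.192 CPM. Trophoblast markers, 3 of 4 of which passed the filter, summed to 11.2 against 2.89 and 2.12 CPM on day 2 and to 1.46 against 0.772 and 0.346 CPM on day 4. Of 11 endoderm genes that passed, 2 were counted higher in replicate 1 (Sox17 and Foxa1) and 0 lower, beside 3.61% and 4.61% of all genes.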
